A study of Mus musculus with 30 samples.

Results

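Transcript levels of 8 genes of cholesterol synthesis, Hmgcs1, Idi1, Fdps, Fdft1, Sqle, Lss, Cyp51 and Dhcr7, were followed in the mouse embryonic ovary. All probe sets that the platform annotation gives to these symbols alone were taken, which gave 20 of 36701 probe sets that are not controls, for 8 of 15964 named genes. Those with signals of 50 or more on 2 or more of the 10 arrays that carry them entered the tests, which left 14 of the 20 and at least 1 per gene. The 8 genes all encode enzymes and none is an uptake receptor, so they are called cholesterol synthesis genes here, and uptake genes are described from a separate list.

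The samples were total RNA of pooled embryonic ovaries from BL/6-129 mice at 11.5, 12.5, 14.5, 16.5 and 18.5 days post coitum (dpc), with 2 numbered samples per age. Gonads of the 2 youngest ages had been sexed with an Sry PCR. The labels name no treatment and no mutation. Each number has an array of each of 3 types, A, B and C, which carry different probe sets, 30 arrays in all. The labels state neither that the 2 samples of an age were separate pools nor that the 3 arrays of a number received the same RNA, so p-values measure the spread between these samples only, which may be technical.

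Cholesterol is built from acetyl-CoA by way of mevalonate, isoprenoid diphosphates, squalene and lanosterol. Transcription of the pathway is driven by SREBP-2, a membrane-bound factor that is carried to the Golgi and cleaved when sterols in the endoplasmic reticulum are low. In the ovary cholesterol is a membrane component of dividing cells and the precursor from which steroid-producing cells make hormones.

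Values are signal intensities in scaled units, in which the authors set the mean of each array to 125. Signals of different probe sets are not set against each other. Changes are log2 differences of signal + 16, later minus earlier age, with the standard error (SE) of the limma fit, and a fold is taken on that scale, so changes of low signals come out too small. A change was called at a Benjamini-Hochberg adjusted p under 0.05 over all 24825 tested probe sets. The 2 samples of an age correlated at r = 0.856 to 0.974 across tested probe sets, and 48.8% to 63.0% of the probe sets of an array reached 50. The 3 prime to 5 prime signal ratio of the Gapdh control probe sets, a measure of RNA length, was 0.829 to 0.845 in the samples of 11.5 and 12.5 dpc, 0.885 to 1.09 in those of 14.5 and 16.5 dpc, then 1.08 and 1.05 at 18.5 dpc. For actin the higher sample of each age, from the youngest to the oldest, had ratios of 1.77, 1.30, 2.19, 1.56 and 1.82, with no steady order over age, while for Gapdh both 18.5 dpc samples lay above all samples of 11.5 to 14.5 dpc. The part of either in the changes below was not tested.

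Promoters were read for the genes with a window in the RefSeq promoter table (GRCm38.p6), which gives 250 bases before to 50 after the start. There were 7 windows for 5 of the 8 genes, and 4 are shown, those of 3 genes that fell over the course (Hmgcs1, Idi1, Cyp51) and of 1 that gave no call (Lss). Capitals mark matches on either strand to TCACNCCAC (a sterol regulatory element, the SREBP site), CCAAT (the NF-Y box) and GGGCGG (the Sp1 box). The windows are chr13:119690101-119690400 on the plus strand for Hmgcs1, chr13:8885356-8885655 on the plus strand for Idi1, chr5:4104648-4104947 on the minus strand for Cyp51 and chr10:76531355-76531654 on the plus strand for Lss.
Hmgcs1: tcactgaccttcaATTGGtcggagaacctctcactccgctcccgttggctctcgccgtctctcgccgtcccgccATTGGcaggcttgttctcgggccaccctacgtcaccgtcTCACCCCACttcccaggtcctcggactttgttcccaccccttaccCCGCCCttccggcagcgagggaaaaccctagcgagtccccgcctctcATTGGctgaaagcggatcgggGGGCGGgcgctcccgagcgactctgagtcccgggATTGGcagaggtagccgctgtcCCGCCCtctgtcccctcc
Idi1: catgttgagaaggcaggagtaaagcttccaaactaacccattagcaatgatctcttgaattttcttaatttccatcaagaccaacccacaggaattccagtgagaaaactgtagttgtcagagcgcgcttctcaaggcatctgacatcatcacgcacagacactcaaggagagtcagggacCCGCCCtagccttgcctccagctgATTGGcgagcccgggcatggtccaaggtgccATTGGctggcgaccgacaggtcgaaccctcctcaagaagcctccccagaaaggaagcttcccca
Cyp51: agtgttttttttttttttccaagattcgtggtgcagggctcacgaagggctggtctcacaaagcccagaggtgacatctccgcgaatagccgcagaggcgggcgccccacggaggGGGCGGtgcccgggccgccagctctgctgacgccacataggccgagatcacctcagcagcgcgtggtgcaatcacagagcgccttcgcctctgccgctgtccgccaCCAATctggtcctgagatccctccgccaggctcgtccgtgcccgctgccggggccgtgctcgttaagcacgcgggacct
Lss: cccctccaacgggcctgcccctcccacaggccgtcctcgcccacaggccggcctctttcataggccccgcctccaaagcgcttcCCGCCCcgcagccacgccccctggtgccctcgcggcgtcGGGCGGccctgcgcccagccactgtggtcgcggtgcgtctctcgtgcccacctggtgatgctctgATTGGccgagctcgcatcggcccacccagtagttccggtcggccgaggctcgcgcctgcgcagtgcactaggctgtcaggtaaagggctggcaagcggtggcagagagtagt
The Hmgcs1 window held 1 match to the sterol regulatory element, TCACCCCAC, which began 137 bases before the start, with 4 CCAAT and 3 GGGCGG matches. The Idi1 window held 2 CCAAT and 1 GGGCGG, the Cyp51 window 1 of each, and the Lss window 1 CCAAT and 2 GGGCGG. Of the 3 Dhcr7 windows, on chromosome 7, 1 held 2 CCAAT and 3 GGGCGG, 1 held 1 GGGCGG and 1 held no match. Across all 32851 windows of the table, 1.24% held TCACNCCAC, 37.4% CCAAT and 35.7% GGGCGG. A match describes these letters and is not a measured binding site.

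Over the whole course, at 18.5 against 11.5 dpc, 7 of the 14 tested probe sets were called lower and none higher, against 6.87% of all tested probe sets called lower and 14.5% called in either direction. They stand for Hmgcs1, Idi1, Fdps, Sqle and Cyp51, while Fdft1, Lss and Dhcr7 had no call in this comparison. The median change of the 14 was -0.67 log2, against 0.02 over all tested probe sets. Both 18.5 dpc samples were below both 11.5 dpc samples on 10 probe sets and above them on 3. The share of all tested probe sets separated in this way was not counted, and 2 samples per age can separate without a change. The 10 lower ones include Cyp51 137321_at, which entered the tests only through arrays of 11.5 and 12.5 dpc. In pooled tissue, fewer cells of a type and less RNA per cell cannot be told apart, here and for every change below.

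**Figure D1:**
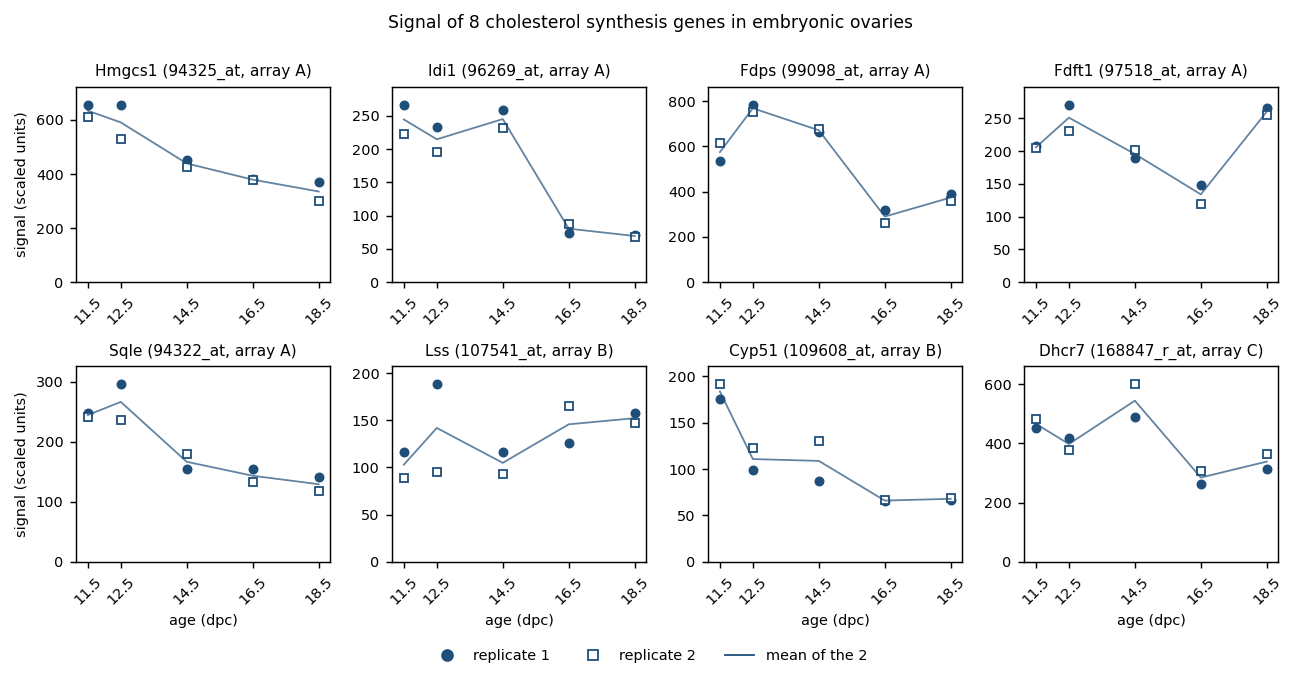
Signal in scaled units against age in dpc for each of the 8 genes, each by 1 probe set, the brightest on average of those tested; filled circles are replicate 1, open squares replicate 2 and lines join the means of the 2. Hmgcs1, Sqle and Cyp51 decline over the course, Idi1 and Fdps drop between 14.5 and 16.5 dpc, and Fdft1 is lowest at 16.5 dpc, with 147.9 and 119.9.

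Hmgcs1 encodes the cytosolic HMG-CoA synthase, which acts at the head of the mevalonate pathway. Its probe set on array A read 657 and 611.3 at 11.5 dpc, 653.5 and 528.2 at 12.5 dpc, 452.1 and 426.3 at 14.5 dpc, 381.4 and 376.9 at 16.5 dpc, then 371 and 299.7 at 18.5 dpc. Every sample of the 3 later ages was below every sample of the 2 earlier ones. Hmgcs1 averaged 335 ± 50.4 at 18.5 dpc and 634 ± 32.3 at 11.5 dpc (SD, n = 2 each). It fell 1.86-fold (log2 -0.89, SE 0.16, limma adjusted p = 0.00324), and the call was lost without 18.5 dpc replicate 2 (limma adjusted p = 0.0536). As a straight line over age it fell by 0.13 log2 per day (limma adjusted p = 0.000998). No single interval was called for it, and its 14.5 against 12.5 dpc change was -0.41 log2 (limma adjusted p = 0.249). Hmgcs1 ran as a gradual series whose neighbouring ages were not separated by the test.

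Idi1 encodes isopentenyl diphosphate isomerase, which interconverts the C5 building blocks of all isoprenoids. Its array A probe set, 96269_at, read 267 and 222.1 at 11.5 dpc, 233.2 and 196.2 at 12.5 dpc, 259.2 and 231.1 at 14.5 dpc, 73.5 and 87.3 at 16.5 dpc, then 71.2 and 67.5 at 18.5 dpc. The first 6 samples overlapped in their ranges and the last 4 all lay below 100. At 16.5 against 14.5 dpc Idi1 fell 2.71-fold on this probe set (log2 -1.44, SE 0.18, limma adjusted p = 0.0030). At 18.5 against 11.5 dpc it fell 3.04-fold (log2 -1.61, limma adjusted p = 0.000123), and both calls held under all 18 alternative settings. At 18.5 against 16.5 dpc the change was -0.17 log2 (limma adjusted p = 0.734).

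A second Idi1 probe set, 164172_at on array B, read 158 and 149.7 at 11.5 dpc, 97.8 and 79.9 at 12.5 dpc, 139.7 and 107.1 at 14.5 dpc, 38.6 and 23.4 at 16.5 dpc, then 68.1 and 76.8 at 18.5 dpc. The 16.5 dpc samples were the lowest pair here too. Idi1 fell at 16.5 against 14.5 dpc on it (log2 -1.58, SE 0.29, limma adjusted p = 0.0337), and since both 16.5 dpc signals were under 50 the size of this change depends on the constant of 16. That call was lost in 9 of 18 alternatives, which were no filter on low signals and leaving out any 1 sample from 12.5 to 18.5 dpc, with an adjusted p of up to 0.167. Between 11.5 and 18.5 dpc the change was -0.94 log2 (limma adjusted p = 0.0471), a call lost in 12 of 18 alternatives, among them the replicate block and leaving out any 1 sample of 11.5, 12.5, 14.5 or 18.5 dpc (up to 0.197). The 2 probe sets differed at 18.5 against 16.5 dpc, where 164172_at gave 0.93 log2 (limma adjusted p = 0.198), so a continued low level of Idi1 to 18.5 dpc rests on 96269_at.

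Fdps encodes farnesyl diphosphate synthase, which joins the C5 units into the C15 precursor of sterols, dolichol and prenyl anchors. Its array A probe set 99098_at read 534.1 and 615.8 at 11.5 dpc, 785.6 and 752.6 at 12.5 dpc, 666.2 and 677.2 at 14.5 dpc, 320.2 and 259.8 at 16.5 dpc, then 388.9 and 359.6 at 18.5 dpc. The 4 late samples were all below the 6 early ones, and both 12.5 dpc samples were the highest of the 10. At 16.5 against 14.5 dpc Fdps fell 2.26-fold (log2 -1.18, SE 0.15, limma adjusted p = 0.00443), a call lost without 16.5 dpc replicate 2 (limma adjusted p = 0.0622). The 12.5 against 11.5 dpc change, 0.41 log2, was not called (limma adjusted p = 0.300). At 18.5 against 11.5 dpc the log2 change was -0.60 (limma adjusted p = 0.0225), and this call was lost after quantile normalization and without 11.5 dpc replicate 2 or either 18.5 dpc sample (up to 0.152).

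A second Fdps probe set on array A, 160424_f_at, read 423.7 and 423 at 11.5 dpc, 446 and 433.2 at 12.5 dpc, 394.3 and 441.6 at 14.5 dpc, 279 and 162.2 at 16.5 dpc, then 223.7 and 272.7 at 18.5 dpc. Its 4 late samples were again below all 6 early ones. The 16.5 against 14.5 dpc change was -0.92 log2 and missed the threshold (limma adjusted p = 0.0685). At 18.5 against 11.5 dpc it was called (log2 -0.74, limma adjusted p = 0.0353), which was lost without an intensity trend or without any 1 sample of 11.5, 12.5 or 18.5 dpc (up to 0.222). The f in its name marks probes that may also match related sequences. The other 4 Fdps probe sets were not tested, and their signals lay between 0.6 and 41.1.

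Fdft1 encodes squalene synthase, the first enzyme committed to sterols. Its array A probe set read 207.4 and 203.9 at 11.5 dpc, 271 and 230.9 at 12.5 dpc, 190 and 201 at 14.5 dpc, 147.9 and 119.9 at 16.5 dpc, then 266 and 254.3 at 18.5 dpc. Both 16.5 dpc samples were the lowest of the 10, and the 18.5 dpc samples lay within the range of the 12.5 dpc samples. Fdft1 averaged 260 ± 8.27 at 18.5 dpc and 134 ± 19.8 at 16.5 dpc (SD, n = 2 each), a 1.85-fold rise (log2 0.89, SE 0.16, limma adjusted p = 0.0346). That call was lost in 9 of 18 alternatives, without an intensity trend and without any 1 sample from 12.5 to 18.5 dpc, with an adjusted p of up to 0.264. The 16.5 against 14.5 dpc change was -0.50 log2 (limma adjusted p = 0.162) and the 18.5 against 11.5 dpc change 0.32 log2 (limma adjusted p = 0.229). Fdft1 was called in the F test over the 5 ages (limma adjusted p = 0.0152) and had no linear trend called, with a slope of -0.01 log2 per day (limma adjusted p = 0.876).

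Sqle encodes squalene epoxidase, the first oxygen-requiring step of the pathway. It read 248.1 and 241.2 at 11.5 dpc, 296.4 and 236.9 at 12.5 dpc, 154.4 and 178.9 at 14.5 dpc, 154.4 and 132.4 at 16.5 dpc, then 140.5 and 118 at 18.5 dpc on array A. As for Hmgcs1, the 6 samples of the 3 later ages were all below the 4 earlier ones. Between 11.5 and 18.5 dpc Sqle fell 1.80-fold (log2 -0.85, SE 0.18, limma adjusted p = 0.00721), a call lost without 18.5 dpc replicate 2 (limma adjusted p = 0.0805). Its 14.5 against 12.5 dpc change, -0.63 log2, was not called (limma adjusted p = 0.104). The linear trend was -0.14 log2 per day (limma adjusted p = 0.00189).

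Lss encodes lanosterol synthase, which closes the sterol ring. Its array B probe set 107541_at read 116.6 and 89.2 at 11.5 dpc, 188.4 and 95.3 at 12.5 dpc, 116.7 and 92.9 at 14.5 dpc, 126.2 and 165.2 at 16.5 dpc, then 157.6 and 146.8 at 18.5 dpc. The 2 samples of 12.5 dpc were far apart, and both 18.5 dpc samples lay above both 11.5 dpc samples. At 18.5 against 11.5 dpc the change was 0.51 log2 (SE 0.30, limma adjusted p = 0.294), and the F test gave a limma adjusted p of 0.505. The array A probe set 160737_at lay between 31.9 and 66.4 and gave an F test limma adjusted p of 0.445. The other 2 Lss probe sets, on array C, were not tested, with signals between 3.1 and 30.7. These results leave the direction of Lss undetermined at this number of arrays.

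Cyp51 encodes lanosterol 14-alpha-demethylase, the cytochrome P450 of the pathway. Its array B probe set 109608_at read 175.8 and 191.7 at 11.5 dpc, 99 and 122.5 at 12.5 dpc, 86.9 and 130.6 at 14.5 dpc, 65 and 66.9 at 16.5 dpc, then 66.5 and 69.2 at 18.5 dpc. The 11.5 dpc samples were the highest and the 4 late samples the lowest. Between 11.5 and 18.5 dpc Cyp51 fell 2.38-fold (log2 -1.25, SE 0.27, limma adjusted p = 0.00792), a call lost without 18.5 dpc replicate 1 (limma adjusted p = 0.0556). The steps of 12.5 against 11.5 dpc (-0.66 log2, limma adjusted p = 0.340) and of 16.5 against 14.5 dpc (-0.58 log2, limma adjusted p = 0.322) were not called.

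There were 2 further tested Cyp51 probe sets, 1 each on arrays C and A. On array C, 137321_at read 93.6 and 59 at 11.5 dpc, 50.4 and 70 at 12.5 dpc, 35.6 and 45.7 at 14.5 dpc, 36.4 and 6.4 at 16.5 dpc, then 13.2 and 13.6 at 18.5 dpc. It fell by 0.24 log2 per day over age (limma adjusted p = 0.0150), and its 18.5 against 11.5 dpc change, -1.62 log2, missed the threshold (limma adjusted p = 0.0588). It reached 50 on 4 arrays, all of 11.5 and 12.5 dpc, so it entered the tests through the ages where it is high. On array A, 94916_at read 42.9 and 39.3 at 18.5 dpc against 55.1 and 86.7 at 11.5 dpc, a change of -0.58 log2 (limma adjusted p = 0.138). All 3 Cyp51 probe sets had both 18.5 dpc samples below both 11.5 dpc samples. For 137321_at this adds little, since it was selected through its high early signals. How many of all tested probe sets separate so was not counted.

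Dhcr7 encodes 7-dehydrocholesterol reductase, the last enzyme in 1 branch of the pathway. Its array C probe set 168847_r_at read 450.3 and 481.8 at 11.5 dpc, 418.9 and 376.8 at 12.5 dpc, 488.1 and 600.6 at 14.5 dpc, 261.1 and 307.8 at 16.5 dpc, then 313.9 and 363.1 at 18.5 dpc. Both 14.5 dpc samples were the highest of the 10 and the 4 late samples the lowest. The 16.5 against 14.5 dpc change was -0.90 log2 (SE 0.23) and missed the threshold (limma adjusted p = 0.0918). The array A probe set 98989_at ran differently, with 29.8 and 53.6 at 11.5 dpc, 109.2 and 73 at 12.5 dpc, and 45.2 to 54 at the 3 later ages. Its 12.5 against 11.5 dpc change was 0.90 log2 (limma adjusted p = 0.192), so the 2 probe sets of Dhcr7 disagree and neither gave a call between ages.

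**Figure D2:**
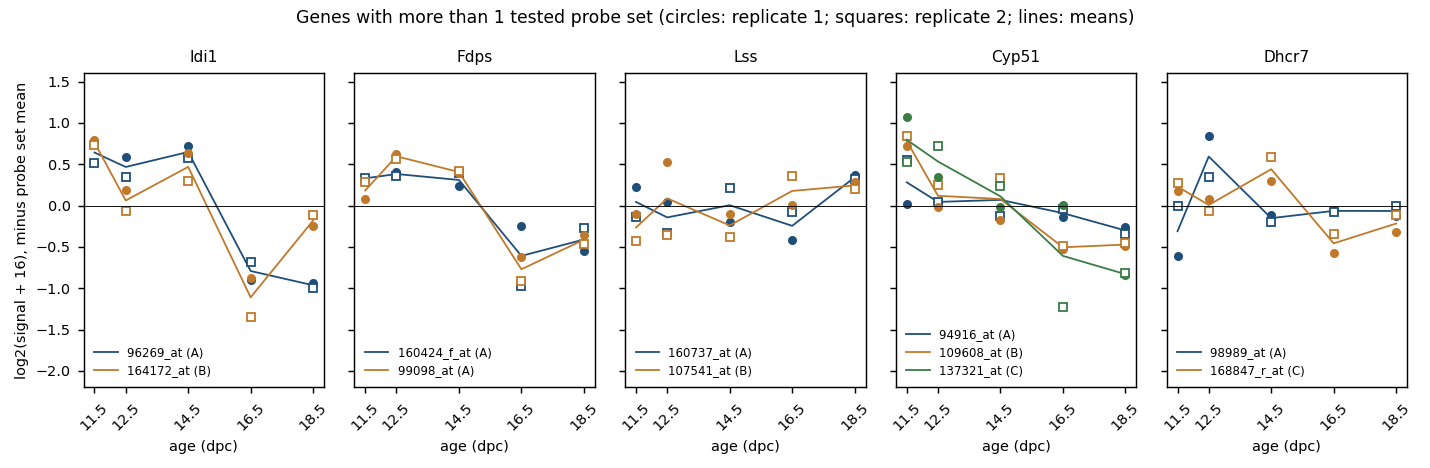
Log2(signal + 16) minus each probe set's own mean, against age in dpc, for the 5 genes with more than 1 tested probe set; colours are probe sets (array type in brackets), circles replicate 1, squares replicate 2 and lines the means. The probe sets of Idi1 and of Fdps drop together at 16.5 dpc, those of Idi1 part at 18.5 dpc, and those of Dhcr7 peak at different ages.

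By interval, the calls on these genes lay at the late ages. At 12.5 against 11.5 dpc none of the 14 probe sets was called by limma (4 had an unadjusted p under 0.05), against 0.226% of all tested probe sets. At 14.5 against 12.5 dpc again none was called by limma (3 had an unadjusted p under 0.05), against 1.66%. At 16.5 against 14.5 dpc 3 were called lower, both tested Idi1 probe sets and 1 of Fdps, against 0.395% of all called lower and 0.689% called in either direction.

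In that interval 12 of the 14 changes were negative, with a median of -0.54 log2 against 0.00 over all tested probe sets. With 1 probe set per gene, 7 of the 8 genes had negative changes, against 6354 of all 12589 tested named genes. Both 16.5 dpc samples were below both 14.5 dpc samples on 8 of the 14 probe sets, above them on 2 and overlapped on 4. How many of all tested probe sets separate so was not counted here either. The 2 positive changes belonged to Lss 107541_at and Dhcr7 98989_at. At 18.5 against 16.5 dpc 1 probe set, that of Fdft1, was called higher, against 0.431% called higher and 0.624% called in either direction. The median of the 14 in this last interval was 0.05 log2. Neighbouring intervals share the samples of an age, so a low or high pair at 1 age enters both.

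**Figure D3:**
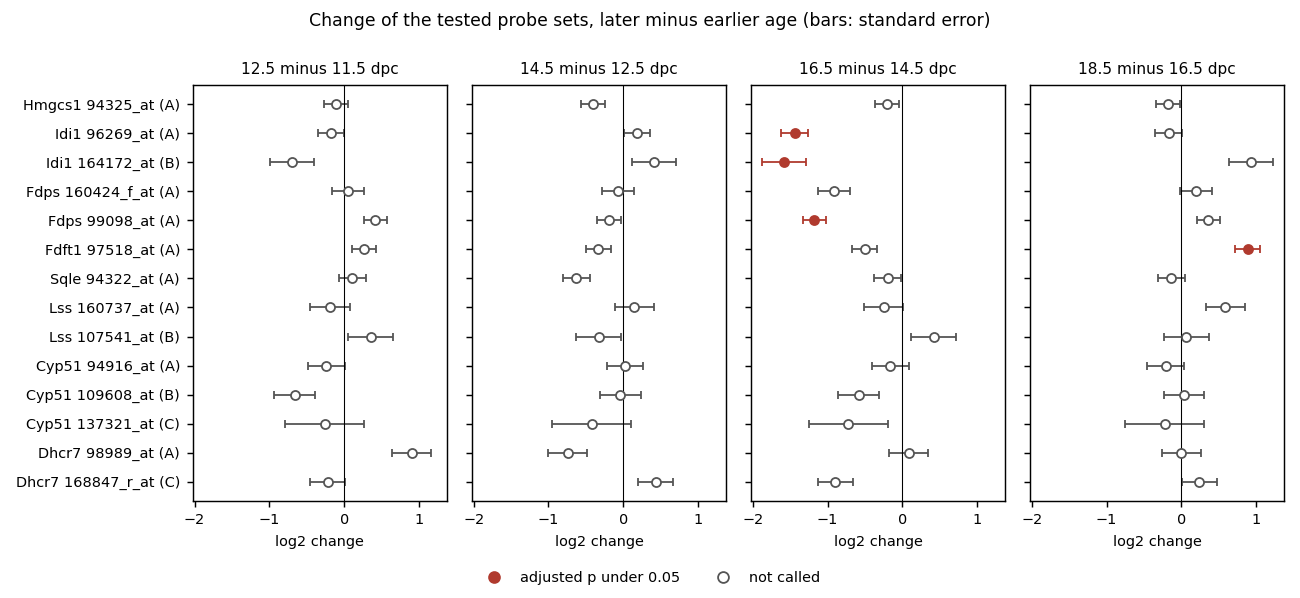
Log2 change of the 14 tested probe sets in the 4 intervals, later minus earlier age, with bars for the standard error of the limma fit; filled points have an adjusted p under 0.05. The 16.5 minus 14.5 dpc panel holds 3 filled points, all negative (both Idi1 probe sets and 1 of Fdps), and the 18.5 minus 16.5 dpc panel 1, Fdft1, at 0.89.

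Tested over all ages at once, 8 of the 14 probe sets were called in the F test, against 14.4% of all tested probe sets. They stand for Hmgcs1, Idi1, Fdps, Fdft1, Sqle and Cyp51. As a straight line over age 7 probe sets were called lower, against 7.26% called lower and 15.0% called in either direction. These belong to Hmgcs1, Idi1, Fdps, Sqle and Cyp51, with slopes of which the Idi1 96269_at slope, -0.25 log2 per day (limma adjusted p = 0.000731), was the steepest of the 7. Among the 7, Cyp51 137321_at entered the tests through the early ages, where it is high.

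All 10 germ cell markers and all 7 pregranulosa markers of the ovary reached the signal needed for testing. Of 4 Sertoli and Leydig markers of the testis, Sox9 (477 to 892.2) and Dhh (188.3 to 535.8) reached it, on probe sets whose f and s suffixes mark possible matches to related sequences, and Amh and Insl3 did not. Marker genes of other cell types moved in the same intervals. The summed signal of the 5 tested erythroid markers (of 7 listed) was 1035 and 905 at 16.5 dpc against 8882 and 8715 at 14.5 dpc, and it was 12071 to 15515 at 11.5 and 12.5 dpc. Most of the 14.5 dpc sum was 1 gene, Hbb-y, with 7712.1 and 7288.3. From 14.5 to 16.5 dpc 4 of the 5 changes were negative and 1 positive, that of Alas2. It read 186.7 and 178.2 at 16.5 dpc against 115.9 and 124.8 at 14.5 dpc and was not called in this interval, so the sum does not speak for every erythroid marker. Hbb-y, Hba-x and Hbb-bh1, the embryonic globins, were called lower at 16.5 against 14.5 dpc, together with 3 of 10 germ cell markers, Pou5f1, Dppa3 and Stra8. Of the 10 germ cell changes 8 were negative and 2 positive, with 0 called higher. Sycp1 was among the positive ones, with 609.9 and 747.5 against 404.1 and 239.1. The 7 stroma markers summed to 7185 and 4822 at 16.5 dpc against 3113 and 3232 at 14.5 dpc, and 3 of them, Col1a1, Mfap4 and Eln, were called higher. Over all 12589 tested named genes 0.858% were called in this interval, 66 lower and 42 higher. The germ cell sum was 4940 and 4932 at 18.5 dpc against 967 and 864.5 at 11.5 dpc. Of the 10 germ cell markers 7 were called higher there and 1 lower, Pou5f1, with 37.3 and 35.6 against 250.3 and 193.1. That sum too does not speak for every marker. The 4 tested surface epithelium markers of 5 listed summed to 2621 and 2519 against 802 and 621. Of 4 tested endothelial markers of 5 listed, 2 were called lower and none higher, with 2 changes positive and 2 negative. Among all tested named genes 17.5% were called between these ages. The part of these shifts in the changes of the cholesterol genes was not tested.

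The genes' own profiles were compared over the 10 sample numbers, taking the A, B and C arrays of a number as 1 sample and each gene by its highest tested probe set. With the mean of the other 7 genes, Fdps had an r of 0.874, Idi1 0.873, Hmgcs1 0.854, Sqle 0.844, Cyp51 0.745 and Dhcr7 0.711. Fdft1 stood lower at 0.355, and Lss was negative at -0.472. Among 6125 genes with a mean signal of at least 100 and a range of age means of at least 0.5 log2, 113 had an r of at least 0.9 with the mean profile of the 8. The 6 closest were Ntan1 (r = 0.984), Dppa5a (0.978), Sox2 (0.976), Hbb-bh1 (0.968), Prmt1 (0.966) and Gtpbp10 (0.965). They include pluripotency genes and an embryonic globin, and none is a sterol gene. These values describe samples that share their arrays and their age order.

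Of 13 other sterol synthesis enzymes 10 were tested, and 1, Msmo1, was called at 18.5 against 11.5 dpc, while 7 of the 10 changes were negative (median -0.13 log2). Msmo1, the C4-methylsterol oxidase that acts after Cyp51, read 80.5 and 56.4 at 18.5 dpc against 182.4 and 117.5 at 11.5 dpc. On its array A probe set it fell 1.95-fold (log2 -0.96, SE 0.24, limma adjusted p = 0.0198), a call lost without 11.5 dpc replicate 1 or 18.5 dpc replicate 2 (up to 0.153). This holds for its array A probe set alone. Of 2 tested probe sets on array C, 1 ran the other way, with 72.1 and 51 at 18.5 dpc against 14.2 and 20.8 at 11.5 dpc (log2 1.20, limma adjusted p = 0.136), and the other gave 0.50 log2 (limma adjusted p = 0.708), so the probe sets of Msmo1 disagree. Lbr, a nuclear membrane protein with sterol reductase activity, was called in the F test (limma adjusted p = 0.0369), with its lowest pair, 200 and 201.3, at 16.5 dpc and its highest, 405 and 344.4, at 12.5 dpc. Of all tested named genes, 17.5% were called at 18.5 against 11.5 dpc.

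Of 7 genes of SREBP regulation 6 were tested, and Insig2 was called at 18.5 against 11.5 dpc, against 17.5% of all tested named genes. Insig2, an endoplasmic reticulum anchor that holds SREBP back, read 303.6 and 266.8 at 18.5 dpc against 147.6 and 140.7 at 11.5 dpc. It rose 1.88-fold (log2 0.91, SE 0.21, limma adjusted p = 0.0126), a call lost without either 18.5 dpc sample (up to 0.108). A second Insig2 probe set gave 0.72 log2, which missed the threshold (limma adjusted p = 0.0631). Its homologue Insig1, itself a SREBP target, read 257.6 and 172.5 at 11.5 dpc, 134.5 and 215 at 12.5 dpc, 99.1 and 124 at 14.5 dpc, 86.2 and 70.9 at 16.5 dpc, then 204.7 and 220.9 at 18.5 dpc. Both 16.5 dpc samples were the lowest of the 10, as for Fdft1. Insig1 was called in the F test (limma adjusted p = 0.0183), and its 18.5 against 16.5 dpc change, 1.28 log2 (SE 0.28), missed the threshold (limma adjusted p = 0.0606). Srebf2, which encodes SREBP-2, had a single probe set that was not tested, at 1.3 to 15.1.

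Of 12 genes of uptake and lysosomal release 8 were tested, and 1, Npc1, was called at 18.5 against 11.5 dpc, with 4 changes positive and 4 negative. Among all tested named genes 17.5% were called in this comparison. Npc1, which moves cholesterol out of lysosomes, read 269.4 and 259 at 18.5 dpc against 114.6 and 147.9 at 11.5 dpc. It rose 1.91-fold (log2 0.94, SE 0.19, limma adjusted p = 0.00650), a call lost without 18.5 dpc replicate 1 (limma adjusted p = 0.0573).

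Of 9 genes of efflux, storage and the sterol sensor LXR 5 were tested, and 3 were called higher at 18.5 against 11.5 dpc. Over all 12589 tested named genes 1151 were called higher in this comparison, and 17.5% in either direction. Abca1, the pump that loads cholesterol onto apolipoproteins, read 319 and 294.6 at 18.5 dpc against 115.2 and 106.9 at 11.5 dpc. It rose 2.54-fold (log2 1.34, SE 0.16, limma adjusted p = 0.000246), and the 4 late samples, 252.2 to 319, were above all 6 early ones. A second Abca1 probe set gave 0.83 log2 (limma adjusted p = 0.0135). Apoe, an apolipoprotein of cholesterol transport, read 486.8 and 533.3 against 195.8 and 169.1, a 2.65-fold rise (log2 1.41, SE 0.23, limma adjusted p = 0.00179). It was also called at 16.5 against 14.5 dpc, with 553.3 and 591.5 against 178.3 and 320.9 (log2 1.20, limma adjusted p = 0.0416), a call lost in 10 of 18 alternatives, among them the replicate block and leaving out any 1 sample of 12.5, 16.5 or 18.5 dpc or 14.5 dpc replicate 1 (up to 0.195). A second Apoe probe set, on array C, was lowest at 16.5 dpc, with 67.2 and 118.2 against 86.4 and 242.8 at 14.5 dpc (log2 -0.62, limma adjusted p = 0.547), so the probe sets disagree in that interval. At 18.5 against 11.5 dpc both were called higher, the second with 326.6 and 475.4 against 143.5 and 109.8 (log2 1.53, limma adjusted p = 0.0378).

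Apoa1, the main protein of high-density lipoprotein, read 330.6 and 327 at 18.5 dpc against 7 and 10.5 at 11.5 dpc and 20.9 and 43.4 at 16.5 dpc. These values are of 165359_f_at on array B, called higher at 18.5 against 11.5 dpc (limma adjusted p = 0.000535). It reached 50 on 3 arrays, both of 18.5 dpc and 1 of 14.5 dpc, so it entered the tests through the samples where it is high, and no fold is given over 11.5 dpc signals this low. A second Apoa1 probe set, on array A, read 106.8 and 124.1 at 18.5 dpc against 3.8 and 10.6 at 11.5 dpc. On 165359_f_at the 14.5 dpc samples were far apart, at 25.1 and 131.4.

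**Figure D4:**
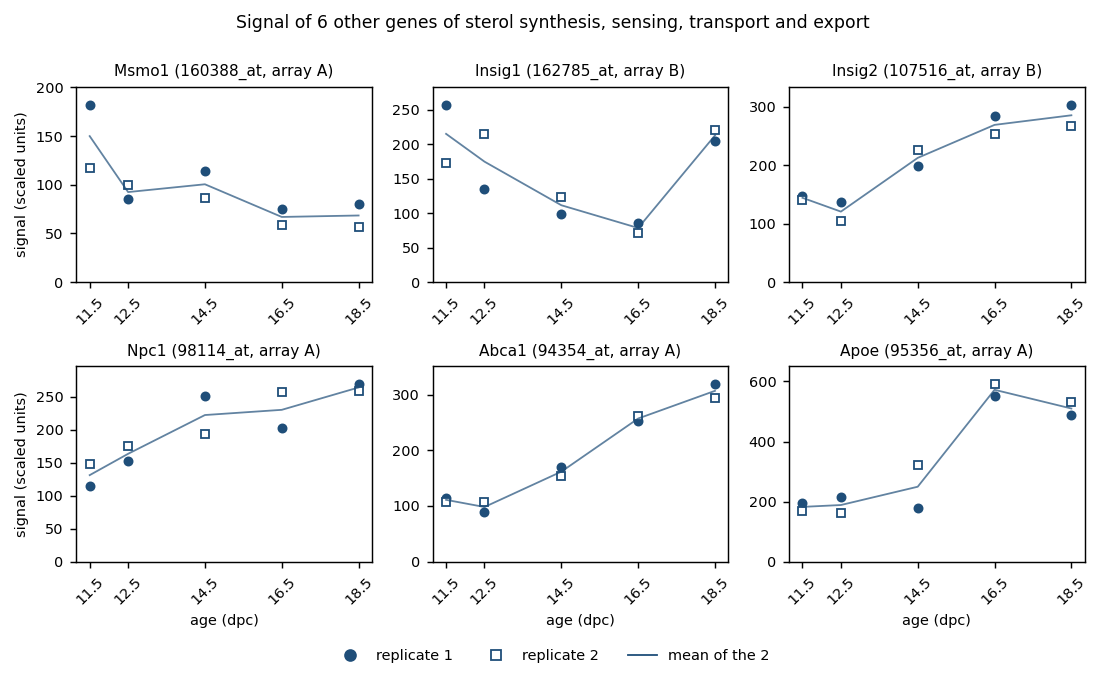
Signal in scaled units against age in dpc for 6 genes of sterol synthesis, sensing, transport and export; filled circles are replicate 1, open squares replicate 2 and lines the means. Msmo1 ends low on this probe set, Insig1 is lowest at 16.5 dpc (86.2 and 70.9), and Insig2, Npc1, Abca1 and Apoe end above their 11.5 dpc samples.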

How the data were processed

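The 10 RNA samples were each read on 3 array types, 30 arrays in all. Signal intensity per probe set was the deposited unit, scaled to a mean of 125 by the authors, per the labels. The software behind them was not given in the sources used here. Gene names came from the platform annotation, with 29131 probe sets holding 1 symbol, 724 several and 6846 none, of which only the first were named.

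Log2(signal + 16) was modelled separately for A, B and C arrays by lmFit and eBayes with an intensity trend (limma 3.58.1, R 4.3.3), with the 5 ages as groups (5 residual degrees of freedom) or age as a line (8). Probe sets with a signal of 50 on at least 2 arrays were tested, 24825 in all, and Benjamini-Hochberg adjustment ran over the 3 types together. The members, gene lists and rules were chosen with earlier results of these data known. All member probe sets are named, and from each other list up to 4 called genes with the largest absolute change. Srebf2 and Insig1 were named in any case, as were the 6 genes with the highest r to the mean profile. Where 1 probe set stands for a gene, it is the tested one of highest mean log2 signal.

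On simulated data with the real means and spreads, 18.5 minus 16.5 dpc, 87 of 290 probe sets changed by 1 log2 and 211 of 284 changed by 2 log2 were called, all with the right sign, among 23952 probe sets, and 15 were called without a change. Alternatives were other pseudocounts and filters, quantile normalization, no intensity trend, a replicate block, adjustment within each array type and leaving out each sample in turn. Figures were drawn with matplotlib 3.10.9 in Python 3.11.15.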

Additional observations from a re-analysis of the deposited data

How the results depend on the processing

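The number of arrays, 2 samples per age, limits the precision, and a p that misses the threshold does not show that levels did not differ. The count of called cholesterol synthesis probe sets was 0 at 12.5 against 11.5 dpc and at 14.5 against 12.5 dpc under every setting run. At 16.5 against 14.5 dpc it was 3, with 1 to 4 when 1 sample was left out and 2 to 4 under the other settings, and it was 1 without 16.5 dpc replicate 2. At 18.5 against 16.5 dpc it was 1, with 0 without an intensity trend and 0 to 1 when 1 sample was left out. At 18.5 against 11.5 dpc it was 7, with 2 to 8 when 1 sample was left out (4 without 11.5 dpc replicate 2, and 3 and 2 without 18.5 dpc replicates 1 and 2) and 6 to 7 otherwise. The F test gave 8, with 6 to 8 when 1 sample was left out, and the linear trend 7 in each of those. With the sample number as a replicate block the counts were 3 at 16.5 against 14.5 dpc and 6 at 18.5 against 11.5 dpc. Deviations from the age means of same-numbered samples correlated at -0.16 to 0.22 over 30 pairs of ages and array types. Of these 1 was above 0.1 and 2 were under -0.1. Little shared deviation was seen, which cannot tell whether the numbers pair samples in handling. Of 851 single values under the planned settings 824 kept direction and side of the threshold, 24 lost and 3 gained a call, and none reversed. Of 1100 with 1 sample left out the numbers were 1011, 84 and 5, again with none reversed. The cause of these moves was not tested.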

Other observations

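Neighbouring lipid pathways were read from lists of the same kind. Of 10 fatty acid synthesis genes, all tested, 2 were called higher at 18.5 against 11.5 dpc, Acss2 and Me1, and none lower, against 17.5% of all tested named genes called in either direction. As a straight line over age 2 were called higher and 2 lower, against 18.2% called. Acss2, which makes acetyl-CoA from acetate, read 29.8 and 22.3 at 11.5 dpc, 12.3 and 39.1 at 12.5 dpc, 177.8 and 213.6 at 14.5 dpc, 274.6 and 209.2 at 16.5 dpc, then 69.1 and 83.4 at 18.5 dpc. It was called higher at 14.5 against 12.5 dpc (limma adjusted p = 0.00284), under all 18 alternatives too. The 6 arrays of 14.5 to 18.5 dpc alone reached 50, so it entered the tests through the ages where it is high, and no fold is given over the 2 younger ages. Its 18.5 against 11.5 dpc call (limma adjusted p = 0.0430) was lost in 12 of 18. Me1, the malic enzyme that supplies NADPH, rose 2.65-fold at 18.5 against 11.5 dpc (log2 1.40, limma adjusted p = 0.000708), and a second probe set gave 0.54 log2 (limma adjusted p = 0.402). Elovl6, a fatty acid elongase, had a trend of -0.12 log2 per day (limma adjusted p = 0.0235, lost without 11.5 dpc replicate 1 at 0.0694). A second Elovl6 probe set gave -0.20 log2 per day (limma adjusted p = 0.00201), with late signals of both under 50. The first reached 50 on 6 arrays, all of 11.5 to 14.5 dpc, so it entered the tests through the ages where it is high. The other lower trend was that of Fasn, the fatty acid synthase gene (-0.10 log2 per day, limma adjusted p = 0.0124), and the higher ones those of Me1 and Fads2, of which Fasn and Fads2 are named after their values were seen. Acaca, acetyl-CoA carboxylase, was called in the F test (limma adjusted p = 0.0453).

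Of 6 steroid synthesis genes 4 were tested and 3 called at 18.5 against 11.5 dpc, 2 higher and 1 lower. The share of all tested named genes called there was 17.5%. Cyp11a1, the side-chain cleavage enzyme that starts steroid synthesis from cholesterol, read 20.9 and 16.5 at 18.5 dpc against 54.3 and 112 at 11.5 dpc. It was called lower (limma adjusted p = 0.0207), a call lost without 11.5 dpc replicate 2 or either 18.5 dpc sample (up to 0.153). It reached 50 on the 2 arrays of 11.5 dpc alone, so it entered the tests through the age where it is high, and no fold is given. Hsd3b1 (limma adjusted p = 0.0468, lost in 11 of 17 alternatives) and Fdx1, the electron donor of Cyp11a1 (log2 0.69, limma adjusted p = 0.0282, lost in 4 of 18), were called higher. Hsd3b1 reached 50 on 6 arrays, all of 14.5 to 18.5 dpc. It too entered the tests through the ages where it is high, and no fold is given. Of 7 tested genes of other mevalonate branches none was called between these ages by limma, with 1 at an unadjusted p under 0.05, and Fnta, a prenyltransferase subunit, rose by 0.09 log2 per day (limma adjusted p = 0.0180, lost without either 18.5 dpc sample, up to 0.0773).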
